A study of Homo sapiens with 4 samples.

Results

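The peaks described here lie on chromosomes 4, 13 and 18, at least 5 Mb from both chromosome ends, in lists of regions whose m6A-immunoprecipitated RNA differed between cells with a slow-elongating and a normal RNA polymerase II (RNAPII). These chromosomes were chosen with earlier results of these data known. Within them, peaks were taken by position alone: a peak belonged where it started above 5 Mb and ended more than 5 Mb before the hg19 end of its chromosome. This gave 256 of the 4889 peaks of the series, 92 on chromosome 4, 84 on chromosome 13 and 80 on chromosome 18. Another 84 peaks of these chromosomes lay nearer to an end and were left out. The study held 4 libraries of HEK293 cells, a human embryonic kidney line, 2 labelled as expressing the slow-elongating RNAPII and 2 labelled RNAPII WT. Per the labels, both groups were kept in 1 µg/ml doxycycline for 24 h, after which α-amanitin, a toxin that blocks RNAPII, was added at 2.5 µg/ml beside the doxycycline for 42 h. The labels describe the slow line as an α-amanitin mutant of RNAPII and the control as wild type, and do not say whether the control form resists the toxin or how many clones were used. Whether the 2 libraries of a group stem from different cultures is not stated, and their spread may be technical.

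N6-methyladenosine (m6A) is a methyl mark that a writer complex containing METTL3 and METTL14 places on adenosines of nascent RNA, while RNAPII is still transcribing. Reader proteins such as the nuclear YTHDC1 bind the mark and affect splicing, export and decay of the RNA. In mRNA it is known to lie mostly in long internal exons and around stop codons, in a short sequence context centred on an A followed by C. In MeRIP-seq, RNA is fragmented, bound to an antibody against m6A and sequenced, so a peak is a stretch of transcript over which bound fragments pile up. Each list set 1 immunoprecipitated library against the same-numbered one of the other condition, without an input library. A difference in methylation and a difference in the amount of transcript therefore cannot be told apart at a listed region. The files give positions in hg19 without gene names, and genes, exons, untranslated regions and sequence of that build were not analysed here.

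Chromosomes 13, 18 and 4 had the lowest density of protein-coding genes, in that order, of the 23 chromosomes compared, all autosomes and X. A RefSeq gene table of assembly GRCh38.p14 lists 338, 270 and 770 coding genes on them, or 2.96, 3.36 and 4.05 per Mb. The label of gene-poor chromosomes therefore held in this table. METTL14 and YTHDC1 themselves are listed on chromosome 4, and whether a peak overlapped either gene was not analysed here.

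A peak is called slow-higher where the slow library was the treatment and WT-higher where the WT library was. Both directions of a pair came from the same 2 libraries and are not independent. Of 8804552 to 20556035 aligned reads, the libraries kept 547402 to 1695246 after duplicate removal, with WT deeper than slow by 2.43 times in pair 1 and 2.08 times in pair 2, and WT pileups were scaled down by these ratios. The lowest summit among the peaks on the 3 chromosomes held 4 slow fragments in both slow-higher lists, against 11 and 10 WT fragments before scaling in the WT-higher lists. Intervals on shares are exact (Clopper-Pearson) 95% binomial intervals, those on differences of shares are Newcombe's, and both cover counting error only.

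The 3 gene-poor chromosomes did not share a direction. On chromosome 4 most peaks were WT-higher, with 12 slow-higher and 40 WT-higher peaks in pair 1 and 11 and 29 in pair 2. On chromosome 13 most were slow-higher, with 33 and 10 peaks in pair 1 and 32 and 9 in pair 2. Chromosome 18 was mixed, and its majority changed sides between the pairs, at 26 slow-higher and 19 WT-higher in pair 1 and 14 and 21 in pair 2.

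**Figure D1:**
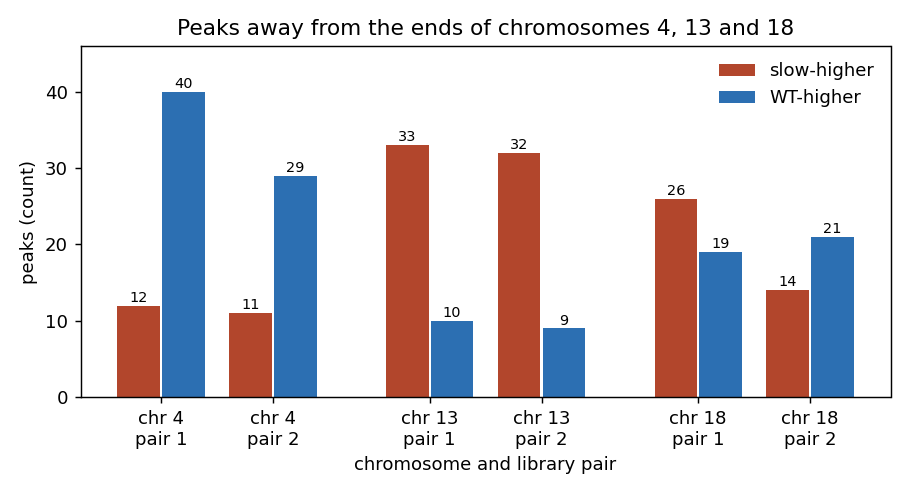
Number of peaks (y axis) on chromosomes 4, 13 and 18, at least 5 Mb from the ends, in each library pair (x axis), with slow-higher peaks in red and WT-higher peaks in blue. Blue bars exceed red bars on chromosome 4 in both pairs (40 against 12, 29 against 11), and red bars exceed blue bars on chromosome 13 in both (33 against 10, 32 against 9).

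As a share, slow-higher peaks made up 23.1% of the chromosome 4 peaks in pair 1 (95% interval 12.5% to 36.8%) and 27.5% in pair 2 (14.6% to 43.9%), a mean of 25.3% ± 3.13 (SD, n = 2 pairs). The mean on chromosome 13 was 77.4% ± 0.922 (SD, n = 2 pairs), from 76.7% (61.4% to 88.2%) and 78.0% (62.4% to 89.4%). On chromosome 18 it was 48.9% ± 12.6 (SD, n = 2 pairs), from 57.8% (42.2% to 72.3%) and 40% (23.9% to 57.9%). Chromosome 13 exceeded chromosome 4 by 53.7 percentage points in pair 1 (34.2 to 67.4) and by 50.5 in pair 2 (29.3 to 65.7). The intervals of chromosomes 4 and 13 did not meet in either pair. The difference between chromosomes 18 and 4 was 34.7 points in pair 1 (15.2 to 50.9) and 12.5 in pair 2 (-8.57 to 32.5), so it was not settled in pair 2. An exact sign-flip test over 2 pairs cannot give a two-sided p below 0.5, and it gave 0.5 for each of these differences.

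Each chromosome was then compared with the other 22 by a two-sided Fisher's exact test of direction, with Benjamini-Hochberg adjustment over all 46 tests (23 chromosomes in 2 pairs). The chromosome 4 share minus that of the others was -38.6 percentage points in pair 1 (interval -48.2 to -25.3, adjusted p = 4.3e-07 by Fisher's exact test) and -34.3 in pair 2 (-45.9 to -18.7, adjusted p = 0.000159 by Fisher's exact test). Its share was the lowest of the 23 chromosomes in both pairs. Chromosome 13 lay 16.4 points above the others in pair 1 (1.76 to 26.7, adjusted p = 0.0664 by Fisher's exact test) and 17.6 above in pair 2 (2.68 to 27.9, adjusted p = 0.0408 by Fisher's exact test), ranking 19 of 23 from the lowest in both. Chromosome 18 differed from the others by -2.97 points in pair 1 (-17.6 to 10.5, adjusted p = 0.815 by Fisher's exact test) and by -21.4 in pair 2 (-36.0 to -4.76, adjusted p = 0.0248 by Fisher's exact test). Chromosome 4 thus passed in both pairs, chromosomes 13 and 18 in pair 2 alone.

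A difference in direction between chromosomes was common across the genome. Of the 46 tests, 56.5% passed, 34.8% with fewer and 21.7% with more slow-higher peaks than the other chromosomes, so passing the test is in itself no mark of gene-poor chromosomes. These tests compare lists: peaks are not replicates of the cells, and neighbouring peaks can share a transcript. With loci in place of peaks (peaks of 1 list no more than 20 kb apart counted once), chromosome 4 still passed in pair 1 and in pair 2 (adjusted p = 0.000273 and 0.0158 by Fisher's exact test), while chromosome 13 passed in neither (0.422 and 0.28). The pair 2 call of chromosome 18 was lost over loci (adjusted p = 0.182 by Fisher's exact test), without peaks that have a neighbour of their list within 20 kb (0.205) and when chromosome 19 was left out of the comparison (0.144). Without peaks that have a neighbour of their list within 20 kb, the difference of chromosome 13 was -0.68 points in pair 1 and 12.6 in pair 2, and that of chromosome 4 was -29.02 and -20.06 points (adjusted p = 0.00304 and 0.103 by Fisher's exact test). Over all alternatives the adjusted p of chromosome 4 ran from 7.81e-10 to 0.00304 in pair 1 and from 3.79e-06 to 0.103 in pair 2.

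**Figure D2:**
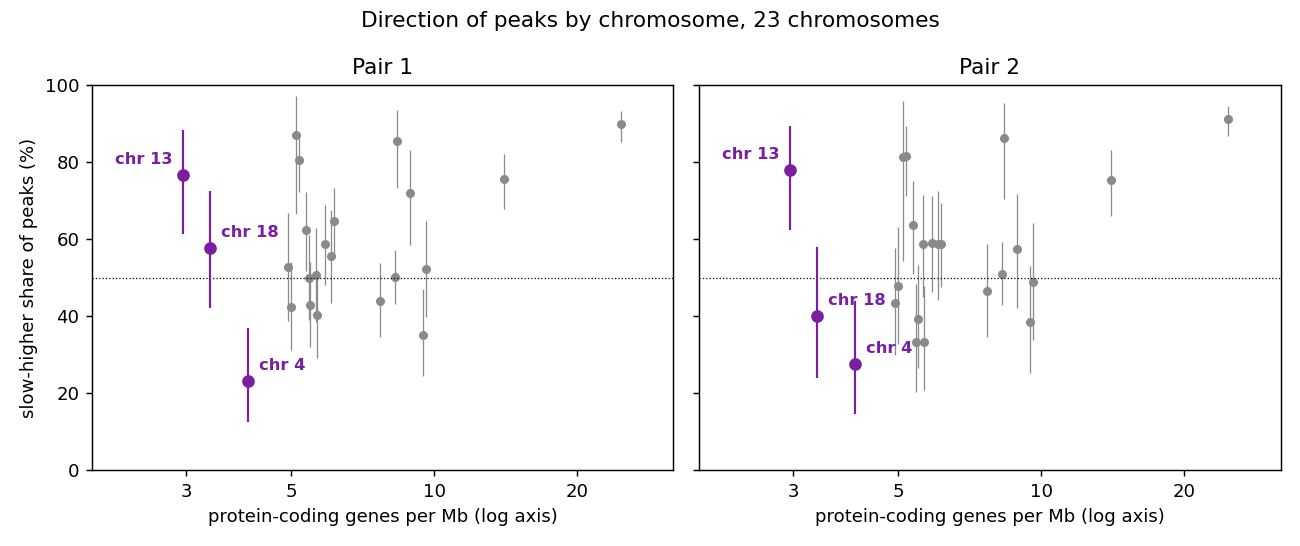
Slow-higher share of peaks at least 5 Mb from the ends (y axis, percent) against protein-coding genes per Mb (x axis, log scale) for 23 chromosomes in pair 1 (left) and pair 2 (right), with exact 95% binomial intervals as bars and a dotted line at 50%. The 3 purple points at the left, chromosomes 13, 18 and 4, span 23.1% to 76.7% in pair 1 and 27.5% to 78.0% in pair 2.

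Joined, the 3 chromosomes held nearly equal numbers of both directions, 71 slow-higher and 69 WT-higher peaks in pair 1 and 57 and 59 in pair 2. Slow-higher peaks were 50.7% (42.1% to 59.3%) and 49.1% (39.7% to 58.6%) of them, against 67.3% and 66.2% of all peaks of the series. Away from the ends of the other 20 chromosomes the shares were 61.4% and 61.8%, so the 3 chromosomes minus the others gave -10.7 points in pair 1 (-19.2 to -2.26) and -12.7 in pair 2 (-21.97 to -3.37). The mean difference was -11.7 points ± 1.42 (SD, n = 2 pairs; exact sign-flip p = 0.5). It rested on chromosome 4: without it the mean difference was 2.16 points, without chromosome 13 it was -25.4 and without chromosome 18 -11.4. It also shrank to -6.72 points when chromosome 19, where 89.8% and 91.1% of peaks were slow-higher, was taken out of the comparison.

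Near the ends, most peaks were slow-higher on these chromosomes and on the others alike. Within 5 Mb of an end, 47 of 52 peaks were slow-higher in pair 1 (90.4%) and 28 of 32 in pair 2 (87.5%), beside 508 of 605 (84.0%) and 351 of 452 (77.7%) at the ends of the other 20 chromosomes. On chromosome 4 these were 20 of 24 and 9 of 13, beside 12 of 52 and 11 of 40 in the interior, a difference that was not tested. The peaks nearest to the limit on either side are given as a description, with no test. The first peak inside it on chromosome 4 was WT-higher (pair 1, 3.41-fold, starting at 6324906) and the nearest one outside was slow-higher (pair 1, 3.0-fold, starting at 3514586). At the far end of chromosome 4, the last peak inside was slow-higher (pair 2, 6.83-fold, starting at 185410712) and the nearest outside WT-higher (pair 2, 8.18-fold, starting at 187521323). On chromosome 18 the first peak inside was WT-higher (pair 1, 10.3-fold) and the nearest outside slow-higher (pair 2, 5.66-fold), and at the far end the last inside was WT-higher (pair 1, 7.85-fold) and the nearest outside slow-higher (pair 1, 4.85-fold). Chromosome 13 had slow-higher peaks on both sides of the limit at its far end (8.1-fold inside and 9.95-fold outside). It had no peak outside the limit at its near end, where the first peak inside started at 20532094. Whether the build holds sequence before that point to which reads could align was not analysed.

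The directions also differed in how densely they filled each chromosome. Chromosome 4 had 6.62 and 6.07 slow-higher peaks per 100 Mb of interior in pairs 1 and 2, the lowest density of the 23 chromosomes in both, and 22.1 and 16.01 WT-higher peaks per 100 Mb, rank 7 from the lowest in both. Chromosome 13 had 31.4 and 30.4 slow-higher peaks per 100 Mb, ranks 9 and 15, and 9.51 and 8.56 WT-higher ones, ranks 2 and 3. Chromosome 18 had 38.2 and 20.6 slow-higher and 27.9 and 30.8 WT-higher peaks per 100 Mb. By this measure chromosome 4 was sparse in slow-higher peaks and chromosome 13 in WT-higher peaks. Densities were taken over the full interior length, and stretches of the build without sequence were not subtracted, nor from the windows below.

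The WT-higher majority of chromosome 4 was spread along the chromosome. In windows of 10 Mb counted from the 5 Mb limit, 14 of 19 windows held a WT-higher peak in pair 1 and 10 of 19 in pair 2, with at most 6 and 7 peaks in a window. WT-higher peaks outnumbered slow-higher ones in 11 windows of pair 1 and 7 of pair 2, and the reverse held in 2 and 3. Chromosome 13 was more concentrated, with 10 of 33 slow-higher peaks of pair 1 and 14 of 32 of pair 2 in 1 window. Slow-higher peaks outnumbered WT-higher ones in 6 and 5 of its 11 windows.

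About as many of these peaks recurred in the other pair as in the whole lists. A peak was shared when it overlapped a peak of the same direction in the other pair by at least 1 bp. Among slow-higher peaks, pair 1 had 33 shared of 71 (46.5%, 34.5% to 58.7%) and pair 2 had 35 of 57 (61.4%, 47.6% to 74.0%), beside 44.0% and 63.1% of the whole lists. In the WT-higher lists it was 20 of 69 (29.0%, 18.7% to 41.2%) and 20 of 59 (33.9%, 22.1% to 47.4%), beside 29.9% and 38.5%. Shares near these backgrounds are not a result about gene-poor chromosomes. By chromosome, 20 of 33 and 22 of 32 slow-higher peaks of chromosome 13 were shared, and 3 of 12 and 3 of 11 of chromosome 4, with intervals of 5.49% to 57.2% and 6.02% to 61.0%. Of the WT-higher peaks of chromosome 4, 9 of 40 and 9 of 29 were shared. None of the 71, 57, 69 and 59 peaks overlapped a peak of the opposite direction in either pair, and a count of 0 leaves room for 5.26% of the smallest list (3 peaks). Within a pair, both directions were called from the same libraries, which leaves little room for such an overlap. The same count was not made for the other chromosomes, so it is no result about gene-poor chromosomes.

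Overlapping peaks of both pairs were joined to regions, 33 slow-higher and 20 WT-higher. Chromosome 13 held 20 slow-higher and 2 WT-higher regions, chromosome 4 held 3 and 9, and chromosome 18 held 10 and 9. Slow-higher regions were thus 90.9% (70.8% to 98.9%), 25% (5.49% to 57.2%) and 52.6% (28.9% to 75.6%) of the regions on chromosomes 13, 4 and 18, beside 70.9% away from the ends of the other chromosomes. Neighbouring regions are not independent, and a 4.4 kb stretch of chromosome 13, with 6 shared peaks in pair 1, gave several of its 20 slow-higher regions. The intervals treat regions as independent and are too narrow where regions cluster. The fold given for a region is its strongest peak's in that pair, the caller's (pileup + 1) over (background + 1), and it compares 1 library with 1 library, with no error of its own. Median folds of the pairs were 7.77 and 8.04 over slow-higher regions, beside 8.02 and 6.59 over WT-higher ones. A fold of 10 or more was reached in both pairs by 3 of 33 slow-higher and 2 of 20 WT-higher regions, beside 122 of 503 and 19 of 206 elsewhere away from the ends. With a pseudocount of 2 in place of 1, the smaller fold of the strongest region fell from 14.9 to 9.12 and that of the weakest named region from 5.85 to 3.46.

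**Figure D3:**
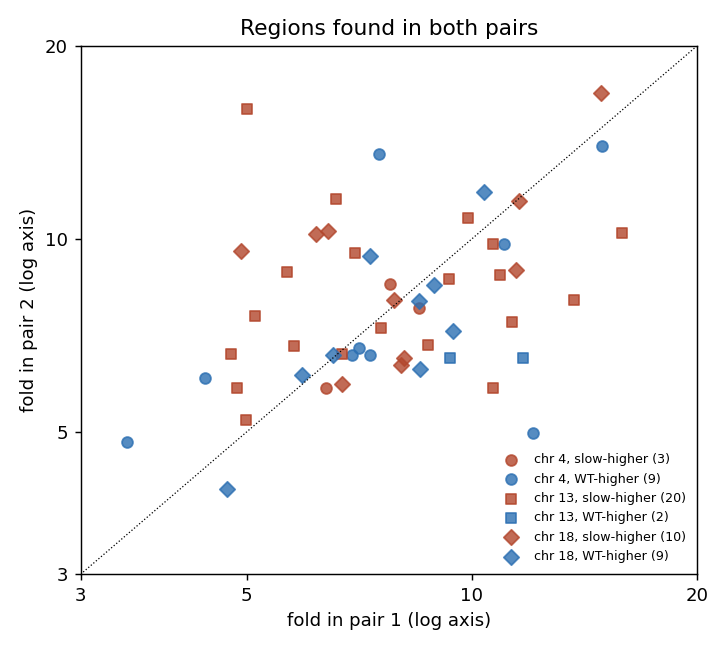
Fold of each region found in both pairs, in pair 1 (x axis, log scale) and pair 2 (y axis, log scale). Red symbols are slow-higher and blue symbols WT-higher, circles are chromosome 4, squares chromosome 13 and diamonds chromosome 18, and the dotted line marks equal folds. Many red squares lie off the line, such as the one at 5.01 and 15.95.

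The WT-higher region with the highest fold in both pairs lay on chromosome 4 from 77675548 to 77675789, 242 bp wide. In pair 1 the scaled WT pileup was 18.1 (44 fragments before scaling) against a slow background of 0.282, a fold of 14.9. In pair 2 the scaled pileup was 16.9 (35 fragments) against 0.278, a fold of 13.97. Its summits in the pairs were 3 bp apart, and it lay in a run spanning 77660187 to 77678026, where each pair had 3 WT-higher peaks. The other peaks of this run did not overlap between the pairs, so 1 peak of 3 recurred in each. No other WT-higher run on these chromosomes held 3 peaks in each pair.

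Next among the 9 WT-higher regions of chromosome 4 came 119203206 to 119203403, at 11.1-fold and 9.83-fold, with 32 and 24 WT fragments over slow backgrounds of 0.282 and 0.278. At 114824028 to 114824255, 21 and 30 WT fragments gave folds of 7.53 and 13.6. This fold differed by more than 1.5 times between the pairs, as did the fold at 110384075 to 110384262, a region named after its values were seen, where 31 and 29 fragments gave 12.1 and 4.99. There the slow background was 0.141 in pair 1 and 2.0 in pair 2, while the WT fragments hardly differed. Both pairs were closer at 124322817 to 124323247 (7.06-fold and 6.76-fold) and at 148993347 to 148993521 (6.92-fold and 6.59-fold). The 3 slow-higher regions of chromosome 4 were all under 10-fold and shallow. At 6384311 to 6384476, 11 and 7 slow fragments gave folds of 8.5 and 7.8. At 83337077 to 83337210, 7 and 8 gave 7.77 and 8.49, and at 152060792 to 152060962, 8 and 5 gave 6.37 and 5.85.

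A single run on chromosome 13 took up 6 of its 33 slow-higher peaks in pair 1 and 7 of its 32 in pair 2. It spanned 4.4 kb from 50697902 to 50702303, and all 6 and all 7 overlapped a peak of the other pair. Folds within it ran from 6.58 to 15.9 in pair 1 and from 5.57 to 11.6 in pair 2, with 8 to 16 and 5 to 16 slow fragments at the summits. Its strongest region, from 50697902 to 50698612, held 16 slow fragments over a scaled WT background of 0.0716 in pair 1, a fold of 15.9, and 10 over 0.0776 in pair 2, a fold of 10.2. It was the only slow-higher region of chromosome 13 above 10-fold in both pairs. Within the same run, 50702129 to 50702303 held 12 slow fragments in either library (10.9-fold and 8.77-fold) and 50700798 to 50701061 held 16 in either (9.32-fold and 8.66-fold).

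Other runs, named after their values were seen, reached 3 peaks in 1 pair only. On chromosome 4 a WT-higher one from 126236423 to 126239304 held 3 peaks in pair 1 and 0 in pair 2, and the next 3 were slow-higher on chromosome 13. From 49784933 to 49795610 there were 2 and 4 peaks, with the strongest region at 49794605 to 49795110, where 17 and 15 slow fragments over backgrounds of 0.824 and 0.482 gave folds of 9.87 and 10.8. From 103389789 to 103397923 there were 1 and 3 peaks. From 79175563 to 79176683 there were 2 and 3, the deepest slow-higher summits of the 3 chromosomes, with up to 76 and 66 fragments but folds of at most 5.67 and 8.88. The region from 79175563 to 79176132 in it had a scaled WT background of 14.4 in pair 1. Outside these runs, 10 slow fragments in each library gave folds of 10.7 and 9.83 at 27746198 to 27746409. The pairs differed most at the region from 21951355 to 21951813, named after its values were seen, where 37 and 38 slow fragments stood over scaled WT backgrounds of 6.59 and 1.44 and the folds were 5.01 and 15.95.

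The 2 WT-higher regions of chromosome 13 lay apart from these runs. At 20716438 to 20716662, 38 WT fragments in pair 1 and 25 in pair 2 gave folds of 11.7 and 6.52. At 95364561 to 95364960, 43 and 25 fragments over a slow background of 1.0 in each pair gave 9.35 and 6.52.

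Chromosome 18 held strong regions of both directions. The highest smaller fold of all 53 regions was slow-higher and lay at 55923737 to 55923930 (14.9-fold and 16.9-fold), with 20 and 24 slow fragments over scaled WT backgrounds of 0.412 and 0.482, which is the weight of a single WT fragment. A second slow-higher region, 32923951 to 32924238, held 13 and 16 slow fragments at folds of 11.6 and 11.5. The strongest WT-higher region, 13645230 to 13645567, held 48 and 47 WT fragments over a slow background of 1.0 in both pairs, at folds of 10.4 and 11.8. The folds of these 3 regions differed by less than 1.5 times between the pairs.

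Further slow-higher regions of chromosome 18 lay from 55257694 to 55257970 (11.5-fold and 8.93-fold), from 43753243 to 43753386 (7.87-fold and 8.04-fold) and from 44039974 to 44040122 (8.11-fold and 6.53-fold). WT-higher ones lay from 55335302 to 55335517 (8.91-fold and 8.47-fold), from 22804385 to 22804907 (8.51-fold and 8.0-fold), from 63547946 to 63548135 (7.32-fold and 9.4-fold) and from 34297726 to 34298063 (9.45-fold and 7.19-fold). The slow-higher region at 55257694 and the WT-higher region at 55335302 were less than 100 kb apart. Also named after their values were seen, 2 slow-higher runs reached 3 peaks in 1 pair. Pair 1 had 4 peaks from 44543079 to 44556267 where pair 2 had 1 peak that overlapped none of them. From 44036730 to 44040122 there were 3 and 2 peaks.

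Across regions, folds in the pairs were loosely related. Pearson's r of log2 fold was 0.29 and Spearman's rho 0.28 over the 33 slow-higher regions, and 0.55 and 0.49 over the 20 WT-higher regions. The folds of a region differed by more than 1.5 times between pairs at 10 of 33 and 3 of 20 regions. These are descriptions: both folds of a region share its transcript, its base composition and the same caller settings, and the regions of a run are not independent. The median distance between the summits of the pairs was 19 bp for slow-higher and 10 bp for WT-higher regions, beside 13 and 12 bp elsewhere away from the ends. For slow-higher regions of chromosomes 4, 13 and 18 it was 11, 41.5 and 13.5 bp. Regions were defined by overlap, which itself keeps their summits close.

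Widths on these chromosomes had medians close to those elsewhere, and the slow-higher peaks of chromosome 4 had low medians. The caller reports no peak shorter than the fragment length it estimated, 116 and 124 bp for the slow-higher and 141 and 139 bp for the WT-higher lists of pairs 1 and 2, so widths were compared within a list only. Median widths over the 3 chromosomes were 143 and 150 bp for slow-higher peaks, beside 147 and 160.5 bp away from the ends of the other chromosomes, and 170 and 184 bp for WT-higher peaks, beside 177 and 174 bp. The slow-higher medians of chromosome 4 were 123.5 and 131 bp, of chromosome 13 154 and 155.5 bp and of chromosome 18 126 and 155.5 bp. The widest peak was 577 bp, slow-higher in pair 1, in the chromosome 13 run at 50697902. Of the 10 peaks of at least 400 bp, 4 and 1 were slow-higher in pairs 1 and 2, all on chromosome 13, and 3 and 2 were WT-higher.

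In both slow-higher lists the median summit was lower than elsewhere. The median slow-higher summit on these chromosomes held 10 fragments in pair 1 and 8 in pair 2, beside 15 and 12 away from the ends of the other chromosomes. The median slow-higher summit held 6.5 and 6 fragments on chromosome 4, 11 and 9 on chromosome 13 and 11 and 10 on chromosome 18. At most 15 and 12 fragments lay over any slow-higher summit of chromosome 4, beside 76 and 66 on chromosome 13. WT-higher summits held a median of 21 and 23 WT fragments before scaling, beside 26 and 24, with the deepest, 128, on chromosome 4 in pair 2. No test was made of these medians, since the lists have 1 library each and peaks are not replicates.

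**Figure D4:**
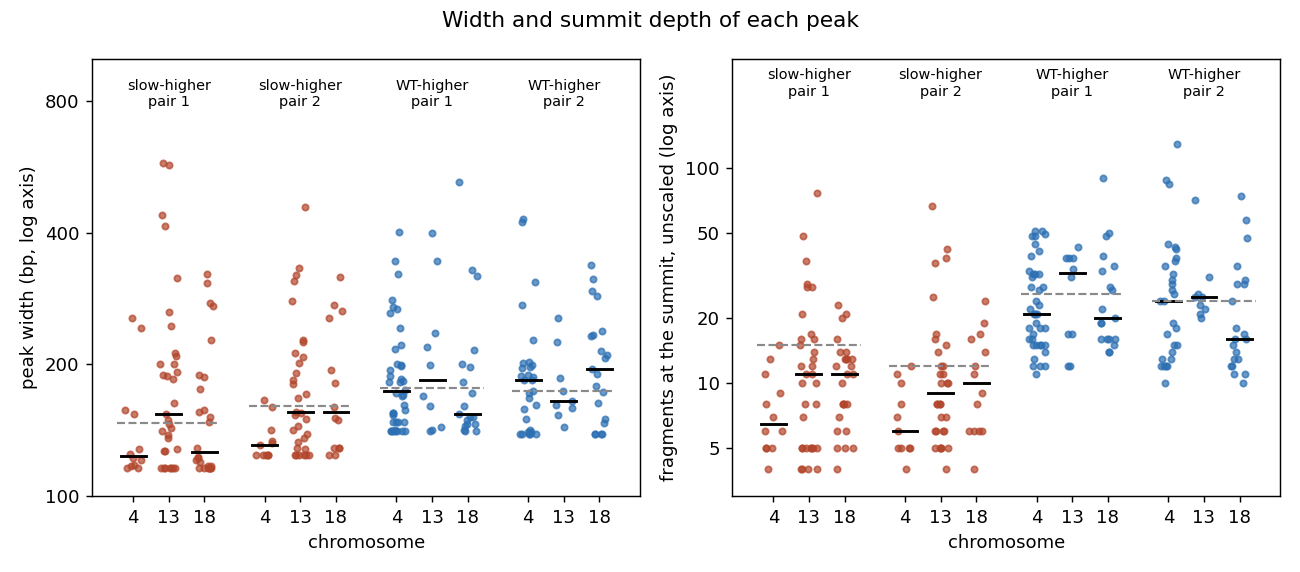
Width in bp (left, log scale) and unscaled fragments at the summit (right, log scale) of each of the 256 peaks, by list and chromosome, with black bars at the medians and dashed grey lines at the median away from the ends of the other 20 chromosomes. Slow-higher peaks of chromosome 4 have the lowest median fragments in both slow-higher lists, 6.5 and 6.

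Median folds hardly set these peaks apart, at 6.72 and 7.58 for slow-higher peaks beside 6.68 and 6.83 elsewhere, and 7.18 and 6.76 for WT-higher peaks beside 6.86 and 7.06. The highest fold was 16.9 on these chromosomes and 63.4 elsewhere. The control background, in units of the pileup, lay under 1 at 57 of 71 and 50 of 57 slow-higher peaks (80.3% and 87.7%), beside 56.7% and 69.3% elsewhere. It did so at 72.5% and 54.2% of WT-higher peaks beside 57.1% and 52.1%. At such peaks the pseudocount of 1 is the larger part of the fold's denominator. In slow-higher lists a background of 1 is the weight of 2.43 and 2.08 WT fragments in pairs 1 and 2. In WT-higher lists it is that of 1 slow fragment, so the limit differs between directions. The background was at the lowest value of its list, within 0.01 of these units, at 25.4% and 26.3% of slow-higher peaks, beside 14.5% and 18.5% elsewhere. For WT-higher peaks this was 37.7% and 32.2% beside 26.2% and 23.8%. The part of depth and background in the directions was not tested.

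Slow-higher peaks of chromosomes 13 and 4 differed in how many had a near neighbour. On chromosome 13, 22 of 33 slow-higher peaks of pair 1 had another peak of their list within 20 kb (66.7%, 48.2% to 82.0%) and 19 of 32 of pair 2 (59.4%, 40.6% to 76.3%), beside 49.1% and 49.7% elsewhere. On chromosome 18 it was 15 of 26 (57.7%) and 6 of 14 (42.9%). On chromosome 4 it was 2 of 12 (16.7%, 2.09% to 48.4%) and 0 of 11, a count that allows up to 3 of 11. Among WT-higher peaks of the 3 chromosomes, 12 of 69 (17.4%, 9.32% to 28.4%) and 15 of 59 (25.4%, 14.98% to 38.4%) had a neighbour, beside 32.1% and 29.5% elsewhere. The median distance to the nearest peak of the list was 0.971 and 0.776 kb for slow-higher peaks of chromosome 13 and 7362 and 7353 kb for those of chromosome 4. The longest chain on these chromosomes held 7 peaks, beside 62 elsewhere.

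**Figure D5:**
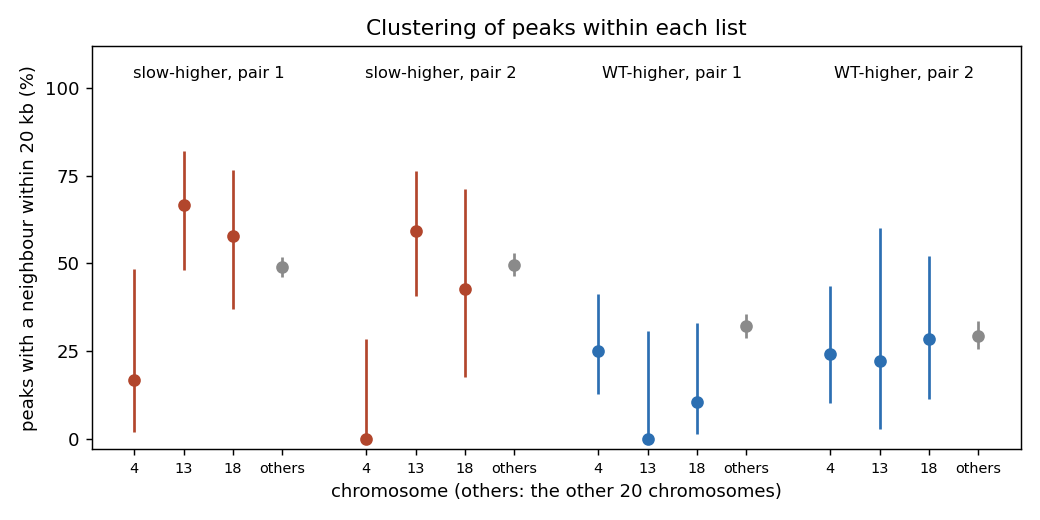
Share of peaks with another peak of the same list within 20 kb (y axis, percent, with exact 95% binomial intervals) for chromosomes 4, 13 and 18 and for the other 20 chromosomes (x axis, all away from the ends), in each of the 4 lists. Slow-higher peaks of chromosome 4 (16.7% and 0%) lie below those of chromosome 13 (66.7% and 59.4%) in both pairs.

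Some peaks of opposite direction were neighbours, and no such count was made on the other chromosomes to set beside theirs. Within 20 kb of each other there were 6 such combinations of a slow-higher and a WT-higher peak, 3 on chromosome 18, 2 on chromosome 13 and 1 on chromosome 4. The closest lay on chromosome 18, where a slow-higher peak of pair 1 from 60189539 to 60189660 (8.15-fold) was 1.6 kb from a WT-higher peak of pair 2 from 60191261 to 60191423 (7.48-fold). Combinations within 1 pair were 1 on each chromosome, 10.9 kb apart on chromosome 4, 15.4 kb on chromosome 13 and 17.2 kb on chromosome 18.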

How the data were processed

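The deposited files are peak lists of 4 m6A-immunoprecipitated RNA libraries. TopHat2 and hg19 are named in the submitters' processing notes, the aligner without a version. The authors called peaks with MACS 2.1.1.20160309, per the file headers, keeping q-values up to 0.01, 1 library against 1 library in both directions of 2 pairs, with 1 read kept per position and strand. Per the file headers, pileup is a coverage signal in which the larger library is scaled to the smaller. Undoing this gave whole fragments, within 0.05, for 1622 of 1622 WT-higher peaks. The deposited fold is a ratio with a pseudocount of 1, from which the background was computed. The authors' −log10 p-values and q-values stand in columns whose names were lost, identified by the caller's column order.

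Lists were compared in Python 3.11.15 with scipy 1.17.1 and the hg19 chromosome lengths. No model was fitted, since each list gives pileups of 1 library at its own peaks only, not the values of all libraries at common regions. The overlap, chain and Fisher steps were tested on simulated lists. For the Fisher step each peak's direction was drawn independently, so the simulation cannot show false calls from neighbouring peaks that share a transcript. Regions named are the 5 of each direction and chromosome with the highest smaller fold of both pairs, and every run of at least 3 peaks of 1 direction in both pairs, chained over gaps of at most 20 kb; runs with 3 peaks in 1 pair were added after their values were seen. The members, regions and tests were chosen with earlier results of these data known. Alternatives covered the q-value limit, loci, overlap rules, chain distances and the peaks compared with.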

Additional observations from a re-analysis of the deposited data

How the results depend on the processing

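Of the alternatives run on the comparisons, 74 kept direction and call or stayed within a set limit, 15 moved, 7 were weaker, 1 stronger and 3 reversed. The limit was the SD of 2 pairs for shares of direction and of neighbours, differences and medians. For shares found in the other pair it was the 95% interval, and for counts of regions a change of 1.5 times. Within that, the 20 WT-higher regions became 15 with 50% reciprocal overlap and 15 where −log10 q was 5 or more. The 33 slow-higher ones became 28 and 30. For shares, their differences and medians, leaving out a pair stays within the SD of 2 pairs by arithmetic, and adds no support. The limit to folds above the depth ratio removed no peak of the 3 chromosomes, so their joined share could not change with it. Of the alternatives on folds of single regions, 27 stayed within the SD of the pairs. Among these are all those with summits within 100 bp, where the same peaks gave the same folds, so they add no support. The region at 49794605 on chromosome 13 was not found under that rule and was not counted there. With a pseudocount of 2, folds stayed only at 20716438 and 95364561 on chromosome 13 and 114824028 on chromosome 4. Their SDs were 3.66, 2.0 and 4.27. Another 22 moved such a fold, all towards lower values with a pseudocount of 2. The joined slow-higher share (49.9%) became 55.01% where −log10 q was 5 or more, 43.8% over loci, 59.4% with the ends included, and, chosen after seeing the data, 63.8% without chromosome 4 and 36.3% without chromosome 13; it ran from 49.1% to 50.7% without a pair. The joined difference (-11.7 points) became -17.8 against every other peak, -6.72 without chromosome 19, -25.4 without chromosome 13 and, reversed, 2.16 without chromosome 4, and ran from -12.7 to -10.7 without a pair. Without peaks that have a neighbour within 20 kb, also added afterwards, chromosome 4 in pair 2 stood at -20.1 points (adjusted p = 0.103 by Fisher's exact test), chromosome 13 at -0.68 in pair 1, reversed, and 12.6 in pair 2 (0.601), and chromosome 18 in pair 2 at -18.3 (0.205). Chromosome 13 in pair 2 also no longer passed over loci (14.7 points) or against every other peak (12.1), and in pair 1 passed without chromosome 19 (20.4). Chromosome 18 in pair 2 no longer passed over loci (-17.4) or without chromosome 19 (-15.8), and in pair 1 it turned to 1.0 there. The tests that passed numbered 16 of 46 over loci and 9 of 46 without neighbouring peaks, in place of 26. Smaller counts enter both, and their part in the lower numbers was not tested. The mean WT-higher pileup (9.87) was 22 before scaling, by construction. The mean of the WT-higher median folds was 7.34 in place of 6.97 with the stricter q, and the share of WT-higher peaks with a neighbour was 31.2% within 100 kb in place of 21.4%. Leaving out a pair leaves nothing to reproduce, and each region is then a single list's peak (57 to 71 for slow-higher, 59 to 69 for WT-higher). Medians ran from 143 to 150 and 170 to 184 bp, 8 to 10 and 8.65 to 11.1 pileup and 6.72 to 7.58 and 6.76 to 7.18 fold without a pair, and neighbour shares from 43.9% to 54.9% and 17.4% to 25.4%. Where no construction is named, the cause was not tested. No paired analysis was possible because each list gives pileups of 1 library at its own peaks only, so no fit with a replicate block could be made beyond the differences within pairs and their sign-flip test. Few peaks, such as 11 slow-higher ones on chromosome 4, leave wide intervals, and the part of depth was not tested.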
